A study of Mus musculus with 25 samples.

Results

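Fc gamma receptors are the macrophage receptors for IgG, and their transcripts were followed here with that of the signalling chain several of them share. The 5 genes were taken by symbol from the deposited count tables: Fcgr1, Fcgr3 and Fcgr4, which encode the activating receptors, Fcgr2b, which encodes the inhibitory receptor, and Fcer1g, which encodes the common gamma chain. They are 5 of the 24411 genes in the tables, and all 5 had counts in every one of the 25 samples. Sense-strand counts per sample ran from 42 to 1962 for Fcgr1, 76 to 1623 for Fcgr3, 9 to 969 for Fcgr4, 35 to 433 for Fcgr2b and 322 to 4069 for Fcer1g.

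Activating Fc gamma receptors bind IgG on antibody-coated particles and pass the signal through the gamma chain, whose immunoreceptor tyrosine-based activation motif (ITAM) is phosphorylated by Src-family kinases and then recruits the kinase Syk. The gamma chain is also needed to bring these receptors to the cell surface. Fcgr2b carries an inhibitory motif (ITIM) in its own tail and recruits lipid phosphatases such as the product of Inpp5d, so that the balance of activating and inhibitory receptors sets how strongly a macrophage answers immune complexes. FcγRI (Fcgr1) has high affinity for IgG, FcγRIII (Fcgr3) is a low-affinity receptor, and FcγRIV (Fcgr4) binds IgG2a and IgG2b with intermediate affinity. Interferon-γ is a classic inducer of Fcgr1.

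RNA-seq was performed on bone marrow-derived macrophages (BMDMs) of C57BL/6 mice, grown with 25 ng/ml M-CSF for 4 days, and on the mouse macrophage line RAW264.7. The paper traces this line to Balb/c mice infected with Abelson murine leukemia virus. The BMDM groups, with 3 samples each, were untreated control cells labelled as cultured for 4 h, cells that had IFN-γ priming (100 U/ml) and then LPS (100 ng/ml) over 1, 4, 12 or 24 h, and cells treated for 12 h with 10 ng/ml IL-4 or 10 ng/ml IL-13. RAW264.7 cells were untreated or given 100 ng/ml LPS for 4 h, with 2 samples each and no IFN-γ. The same 3 control samples served all BMDM comparisons at 1 to 24 h, so that these comparisons were not independent of each other, and the labelled culture time of the control matched the 4 h group alone. The length of the IFN-γ priming is not given in the sources used here, and BMDMs given LPS alone are not analysed here. The control was not primed, so a rise or fall against control, also at 1 h, covers priming and LPS together. The part of priming in it was not tested. The study's methods describe the BMDM replicates as biological, each from its own RNA sample. Whether they came from separate mice is not given in the sources used here. The p-values rest on the spread between these samples as estimated by fits that share information across all genes. They are therefore not a measure of each gene's own replicates alone.

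Counts on the sense strand summed to 2378639 to 3357300 per sample, and 1502618 to 2532496 remained without Rn45s, a ribosomal precursor that took 20.1% to 39.8%. Values are counts per 1e6 (CPM) without Rn45s, scaled by TMM. All 8 macrophage markers (Adgre1, Csf1r, Cd68, Itgam, Mertk, Lyz2, Cd14 and Spi1) had at least 10 counts in every BMDM sample, and in RAW264.7 Mertk was at 0 in all 4 samples while the other 7 markers were present. Markers of other cells that carry these receptors were near 0 in BMDMs: the summed level was at most 1.79 CPM for 5 B cell markers, 3.34 CPM for 4 NK cell markers, 4.20 CPM for 6 mast cell and basophil markers and 9.86 CPM for the 7 neutrophil markers in the tables. T cell markers, of which 4 of 5 were at 0, summed to 2.11 to 12.7 CPM, dendritic cell markers to at most 2.47 CPM and fibroblast markers to 52.5 to 109 CPM in BMDMs, the last at 0 in RAW264.7. Replicate 3 at 12 h of IFN-γ and LPS stood apart from the other 12 h samples, with a chi-square per degree of freedom of 3.63 and 4.53 against them where they differed from each other by 1.30. The tested changes that moved most with it are also given without it, while ratios and shares at 12 h include it. In bulk RNA, fewer cells with a transcript and less of it per cell cannot be told apart.

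The genes other than Fcgr1 lie in 1 cluster. In GENCODE M21 (GRCm38/mm10) they span 276 kb of chromosome 1, as Fcgr2b (chr1:170958617-170976547, minus strand), Fcgr4 (chr1:171018920-171029761, plus strand), Fcgr3 (chr1:171051174-171064935, minus strand) and Fcer1g (chr1:171229572-171234365, minus strand). Fcgr1 is alone on chromosome 3 (chr3:96282909-96293969, minus strand). Fcgr2b and Fcgr3 share near-identical sequence: 9.58% of the 50-base stretches in Fcgr3 transcripts also occur in Fcgr2b transcripts, and 2.92% the other way. No 50-base stretch was shared between any other pair. Reads that map to both genes were set apart as multimapping in the deposited tables, so that the counts of Fcgr2b and Fcgr3 leave them out.

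RefSeq promoters (GRCm38.p6, 250 bases before to 50 after the annotated start, 5′ to 3′ on the strand of the gene) are shown for the 4 receptors, because their transcripts moved in different treatments although 3 of them are neighbours. Capitals mark matches to 5 short motifs, searched on both strands: a STAT site of the GAS type (TTCNNNGAA), a STAT6-type site (TTCNNNNGAA), an IRF site (GAAANNGAAA), the PU.1 core (GAGGAA) and an NF-kB frame (GGGANNNNCC). Of 27025 promoters of this length, 8.47%, 6.99%, 3.49%, 28.3% and 20.5% hold these motifs, in that order.
Fcgr1, chr3:96293920-96294219: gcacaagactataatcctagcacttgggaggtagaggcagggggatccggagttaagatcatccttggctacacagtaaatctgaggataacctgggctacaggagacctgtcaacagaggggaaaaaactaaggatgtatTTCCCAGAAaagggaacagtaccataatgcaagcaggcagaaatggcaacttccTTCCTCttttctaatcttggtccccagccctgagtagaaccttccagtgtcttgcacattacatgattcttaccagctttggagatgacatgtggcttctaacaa
Fcgr4, chr1:171018676-171018975: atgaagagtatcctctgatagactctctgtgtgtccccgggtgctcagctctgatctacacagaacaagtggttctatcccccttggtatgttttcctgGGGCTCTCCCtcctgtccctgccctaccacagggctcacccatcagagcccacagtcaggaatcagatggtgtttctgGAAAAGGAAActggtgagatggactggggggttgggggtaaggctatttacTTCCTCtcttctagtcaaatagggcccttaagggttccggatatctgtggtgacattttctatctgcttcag
Fcgr3, chr1:171059354-171059653: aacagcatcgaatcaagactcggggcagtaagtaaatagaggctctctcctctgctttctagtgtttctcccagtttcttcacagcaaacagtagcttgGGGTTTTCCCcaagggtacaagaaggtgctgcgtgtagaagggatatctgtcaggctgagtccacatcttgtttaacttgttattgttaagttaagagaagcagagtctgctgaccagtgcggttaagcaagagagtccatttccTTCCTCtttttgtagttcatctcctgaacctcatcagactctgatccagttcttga
Fcgr2b, chr1:170976022-170976321: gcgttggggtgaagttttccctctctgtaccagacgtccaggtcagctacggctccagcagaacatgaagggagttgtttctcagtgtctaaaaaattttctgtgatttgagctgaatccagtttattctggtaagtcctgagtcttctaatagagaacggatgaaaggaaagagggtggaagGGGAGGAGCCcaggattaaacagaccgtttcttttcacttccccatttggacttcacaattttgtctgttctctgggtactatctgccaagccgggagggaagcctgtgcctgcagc

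The Fcgr1 window held 1 GAS-type match, TTCCCAGAA, from 109 to 101 bases before the start, and 1 PU.1 core. The Fcgr4 window held 1 IRF-type match, GAAAAGGAAA, from 73 to 64 bases before the start, with 1 PU.1 core and 1 NF-kB frame. The Fcgr3 window held 1 PU.1 core directly before the start and 1 NF-kB frame, and its alternative RefSeq start, 9 bases away, had the same matches. The Fcgr2b window held an NF-kB frame only, and the Fcer1g window, not printed, held 2 of them. The RefSeq windows of Fcgr3 and Fcgr2b lie inside these genes as GENCODE M21 places them. Their upstream ends there are at chr1:171064935 and chr1:170976547, and sequence around those ends was not searched. No window of these 5 genes held the STAT6-type letters, and no matches overlapped each other. A match is a run of letters and not a bound site, and binding was not measured in these data.

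In control BMDMs, Fcgr3 was the most abundant receptor transcript per kilobase of annotated exon, at 333 ± 11.3 CPM per kb (SD, n = 3), followed by Fcgr4 at 49.2 ± 3.63, Fcgr1 at 21.2 ± 0.792 and Fcgr2b at 6.08 ± 1.71. Fcer1g stood at 517 ± 34.5 CPM per kb. Fcgr3 thus made up 81.3% ± 0.793 of the 4 receptors' summed level per kb, Fcgr4 12.0% ± 0.469, Fcgr1 5.18% ± 0.287 and Fcgr2b 1.48% ± 0.395. The length used matters for Fcgr2b, whose annotated exons sum to 5790 bases: with the median length of its coding transcripts, 1520 bases, its share was 4.36% ± 1.13 and that of Fcgr3 82.4% ± 1.34.

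**Figure D1:**
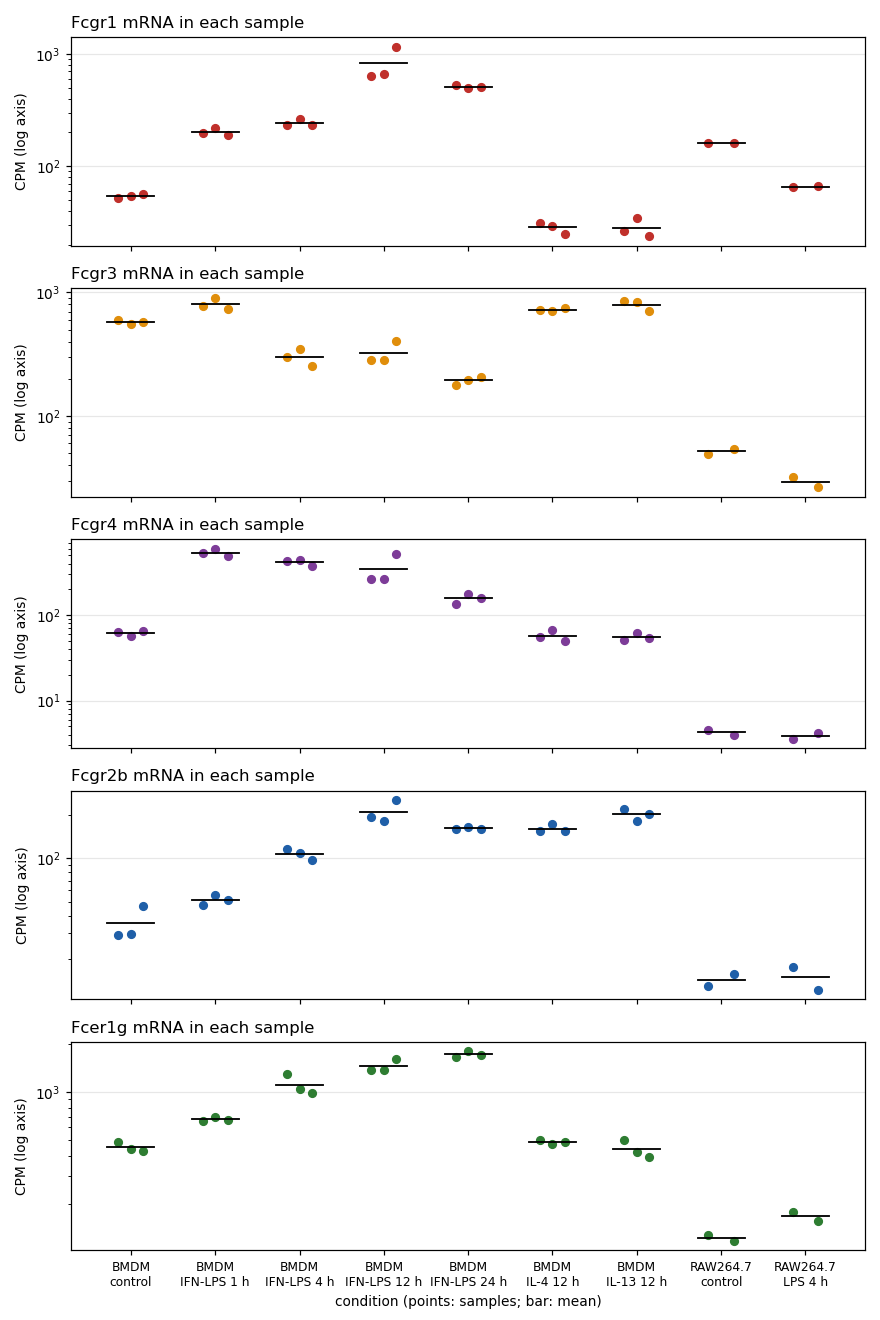
Level of each transcript in CPM on a log axis (a different range in each panel), with 1 point per sample and a bar at the mean, in the 7 BMDM and 2 RAW264.7 conditions; IFN-LPS stands for IFN-γ priming with LPS. Fcgr1 and Fcer1g are at their highest in the 12 and 24 h IFN-LPS samples, and Fcgr2b at 12 h of IFN-LPS and after IL-13. Fcgr4 is highest at 1 h, and Fcgr3 at 1 h and after IL-4 or IL-13.

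To follow the receptors through M1 activation, each time point after IFN-γ and LPS was compared with the control, and a gene was called when it passed an FDR of 0.01 and had changed by 1.5 or more on the log2 scale. Fcgr1 and Fcgr4 were called at 1 h, Fcgr2b joined them at 4 h and Fcer1g at 12 h, whereas Fcgr3 fell and passed the fold threshold at 24 h. At 1 h, 2 of the 5 genes were called higher, where 5.04% of all 9568 genes tested were, and 4 of 5 passed the FDR at any size, against 26.0% of all genes. At 4 h, 3 were called higher (11.4% of all genes), and all 5 passed the FDR (51.5%). At 12 h, 4 were called higher (8.87%) and 5 passed the FDR (47.3%). At 24 h, 3 were called higher (7.93%), 1 was called lower (6.93%) and 5 passed the FDR (45.2%).

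Fcgr1, the high-affinity receptor, was already above control at 1 h of LPS after priming and stood highest at 12 h. Control samples held 52.7, 55.0 and 56.8 CPM, and samples at 1 h 200, 221 and 191 CPM. At 4 h the values were 232, 262 and 235 CPM. At 12 h they were 640, 664 and 1157 CPM, and at 24 h 527, 499 and 510 CPM. Every sample given IFN-γ and LPS lay above every control sample, and those at 12 h and 24 h lay above all earlier ones. The fold change against control was 3.63 at 1 h (log2 1.86 ± 0.19 SE, adjusted p = 3.05e-07), 4.26 at 4 h (log2 2.09 ± 0.20, adjusted p = 2.64e-08), 14.4 at 12 h (log2 3.85 ± 0.19, adjusted p = 1.33e-12) and 9.30 at 24 h (log2 3.22 ± 0.19, adjusted p = 2.33e-11). Without replicate 3 at 12 h, the 12 h mean was 652 CPM and the log2 fold change 3.55.

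Fcgr4, the receptor for IgG2a and IgG2b, had the largest rise of the 5 genes at 1 h and at 4 h, and was lower again by 24 h. From 64.0, 56.6 and 64.9 CPM in control samples it reached 527, 595 and 491 CPM at 1 h. It stood at 426, 440 and 377 CPM at 4 h and at 264, 263 and 524 CPM at 12 h. By 24 h it was down to 135, 175 and 160 CPM, still above every control sample and below every other BMDM sample given IFN-γ and LPS. The log2 fold change against control was 3.09 ± 0.25 at 1 h (8.50-fold, adjusted p = 1.04e-06), 2.69 ± 0.26 at 4 h (adjusted p = 1.85e-06), 2.45 ± 0.26 at 12 h (adjusted p = 4.42e-06) and 1.34 ± 0.26 at 24 h (adjusted p = 1.02e-03). The change at 24 h passed the FDR and not the fold threshold. At 12 h replicate 3 was far above the other samples, and without it the log2 fold change there was 2.07.

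Fcgr3, the low-affinity receptor, fell from 4 h on, after a small rise at 1 h that depended on the scaling. Control samples held 595, 557 and 582 CPM, and samples at 1 h 775, 905 and 739 CPM, so that the groups did not overlap. The level then dropped to 298, 351 and 256 CPM at 4 h and 283, 285 and 404 CPM at 12 h. It ended at 179, 197 and 208 CPM at 24 h, the lowest of all BMDM samples. The log2 fold change was 0.45 ± 0.11 at 1 h (adjusted p = 7.70e-04), -0.99 ± 0.11 at 4 h (adjusted p = 6.47e-10), -0.88 ± 0.11 at 12 h (adjusted p = 6.52e-09) and -1.57 ± 0.11 at 24 h (adjusted p = 2.19e-15). The change at 24 h, a fall by 2.97-fold, was called, and the others passed only the FDR. The rise at 1 h missed the FDR with library size alone (0.26, adjusted p = 0.0329) and without replicate 2 at 1 h (0.36, adjusted p = 0.0124). When library size alone was used in place of TMM, the change at 4 h was called too, at -1.52, and when the fold threshold was the null hypothesis the change at 24 h was not called (adjusted p = 0.778).

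Fcgr2b, the inhibitory receptor, was called at 4, 12 and 24 h. Fcgr1 was called at 1, 4, 12 and 24 h, and Fcgr4 at 1, 4 and 12 h. Control samples held 29.1, 29.9 and 46.6 CPM, of which replicate 3 was the highest. Samples at 1 h held 47.7, 55.5 and 51.7 CPM, all above the control samples by little. The level was 116, 109 and 97.0 CPM at 4 h, 193, 183 and 255 CPM at 12 h and 160, 167 and 160 CPM at 24 h, with no overlap between these groups and the control. The log2 change at 1 h, 0.52 ± 0.16, lay at the edge of the FDR (adjusted p = 0.0112). It passed with no filter on low counts (adjusted p = 2.91e-03), with the compared groups alone (4.16e-03), with the replicate block (7.82e-03) and without control replicate 3 (0.77, adjusted p = 6.42e-04), any 1 of the 12 h samples or replicate 1 at 24 h, and missed under the other alternatives. The change was 1.55 ± 0.16 at 4 h (adjusted p = 3.88e-12), 2.53 ± 0.14 at 12 h (5.78-fold, adjusted p = 5.30e-21) and 2.20 ± 0.14 at 24 h (adjusted p = 1.39e-18). The call at 4 h sat just above the fold threshold: it was lost with library size alone (1.02), with a filter of at least 10 counts in every sample (1.39), without control replicate 1 (1.43) or 2 (1.46), and with the fold threshold as the null hypothesis (adjusted p = 0.763). B cells also express Fcgr2b, and summed B cell markers were between 0 and 1.63 CPM in control and between 0 and 1.16 CPM in the treated samples of the time course.

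Fcer1g, the signalling chain, was higher than in control at every time point. Its level was 486, 443 and 428 CPM in control samples and 661, 698 and 673 CPM at 1 h. It was 1289, 1038 and 981 CPM at 4 h, 1375, 1371 and 1613 CPM at 12 h and 1648, 1803 and 1717 CPM at 24 h. No 2 of these 5 groups overlapped, and the order of the groups followed time. The log2 fold change against control grew from 0.55 ± 0.09 at 1 h (adjusted p = 3.83e-06) to 1.23 ± 0.09 at 4 h (adjusted p = 4.51e-16), 1.64 ± 0.09 at 12 h (adjusted p = 1.39e-20) and 1.93 ± 0.09 at 24 h (3.80-fold, adjusted p = 3.31e-23). The first 2 of these passed the FDR alone. With library size alone the change at 12 h was 1.32 and was no longer called. With the fold threshold as the null hypothesis it was not called either (adjusted p = 0.164).

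**Figure D2:**
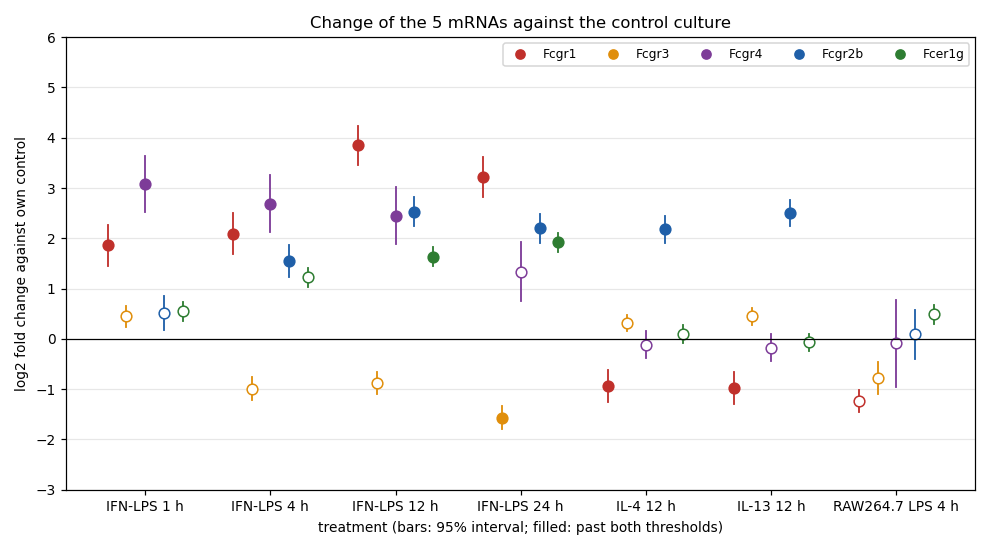
Log2 fold change of the 5 transcripts against the control of the same cells (vertical axis) for each treatment (horizontal axis), with 95% intervals from edgeR; filled points passed both the FDR and the fold threshold of that comparison. Fcgr1 reaches 3.85 at 12 h of IFN-γ and LPS and lies below 0 after IL-4 or IL-13, while Fcgr2b is above 2 in both kinds of treatment at 12 h.

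TMM scaling and plain library size gave different zero points in this time course. With library size alone, the median log2 fold change over all genes moved by -0.19, -0.53, -0.31 and -0.22 at 1, 4, 12 and 24 h, and the share of higher genes among all called at 4 h went from 49.8% to 29.1%. At 1, 12 and 24 h it went from 70.8% to 59.4%, from 51.3% to 37.6% and from 53.4% to 43.2%. The median also moved by -0.34 from 1 to 4 h, 0.22 from 4 to 12 h, -0.35 and -0.37 in the comparisons of 12 h of IFN-γ and LPS with IL-4 and IL-13, -0.18 in RAW264.7 and 0.24 between RAW264.7 and BMDM control, and by under 0.1 elsewhere. The share of higher genes among those called went from 50.4% to 31.3% between 1 and 4 h, from 53.9% to 68.3% between 4 and 12 h and from 32.5% to 43.3% between 12 and 24 h. Against IL-4 it went from 53.5% to 37.6% and against IL-13 from 53.6% to 36.2%. All changes of the 5 genes against control that passed the FDR kept their direction under both scalings.

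Successive time points were then compared directly, which tests the turns in these courses. From 1 to 4 h, Fcgr2b rose (log2 1.03 ± 0.15, adjusted p = 7.08e-08), Fcer1g rose (0.68 ± 0.09, adjusted p = 2.02e-08) and Fcgr3 fell (-1.44 ± 0.11, adjusted p = 4.20e-14). None of the 5 passed the fold threshold with edgeR, where 14.0% of all genes did, or with DESeq2. With edgeR, 3 of 5 passed the FDR (38.9% of all genes) and an unadjusted p of 0.05. Fcgr1 differed by 0.23 ± 0.17 (adjusted p = 0.278), and this sign turned with library size alone (-0.11). Fcgr4 differed by -0.40 (adjusted p = 0.153), a difference that passed the FDR with library size alone (-0.74, adjusted p = 6.80e-03), with the compared groups alone (adjusted p = 2.12e-04) and without replicate 3 at 12 h (-0.39, adjusted p = 1.31e-04). From 4 to 12 h, Fcgr1 rose by 1.76 ± 0.16 (3.39-fold, adjusted p = 4.35e-08), 1 of 5 called higher where 5.20% of all genes were. Without replicate 3 at 12 h, that change was 1.45 and no gene was called. Fcgr2b (0.98 ± 0.13, adjusted p = 8.57e-09) and Fcer1g (0.41 ± 0.09, adjusted p = 2.15e-04) also passed the FDR, 3 of 5 in all (35.9% of all genes).

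From 12 to 24 h the activating receptors declined. Fcgr1 changed by -0.64 ± 0.15 (adjusted p = 4.52e-03), Fcgr3 by -0.69 ± 0.11 (adjusted p = 1.19e-05) and Fcgr4 by -1.12 ± 0.23 (adjusted p = 3.91e-03). These 3 passed the FDR, against 14.2% of all genes. None of the 5 was called with edgeR, against 1.29% of all genes, or with DESeq2. With edgeR all 5 had an unadjusted p under 0.05. With the compared groups alone, Fcgr1 and Fcgr4 missed the FDR (adjusted p = 0.0419 and 0.0388), and without any 1 of the 24 h samples so did both (adjusted p from 0.0119 to 0.0355). Fcgr4 also missed it with the replicate block (0.0102), and Fcgr1 without replicate 3 at 1 h or any 1 of the 4 h samples (0.0103 to 0.0252). Without replicate 3 at 12 h the changes were -0.33 for Fcgr1, -0.52 for Fcgr3 and -0.73 for Fcgr4, and the change of Fcgr4 from 4 to 12 h was -0.63 (adjusted p = 7.81e-07) in place of -0.23 (adjusted p = 0.423). Fcgr2b (-0.33 ± 0.11, adjusted p = 0.0280) and Fcer1g (0.29 ± 0.09, adjusted p = 0.0147) did not pass the FDR. Without replicate 3 at 12 h, Fcgr2b differed by -0.19 (adjusted p = 0.260), and Fcer1g passed at 0.35 (adjusted p = 2.27e-03). Fcer1g passed also with library size alone (0.37, adjusted p = 1.11e-03), at least 10 counts in every sample (6.87e-03), the replicate block (9.30e-03) and without replicate 1 at 4 h (7.79e-03). The antisense share of Rn45s, a property of the library, was 0.0386% to 0.122% in the control and 1 to 12 h samples and 0.00603% to 0.0214% in the 24 h, IL-4 and IL-13 samples, and its part in comparisons across these samples was not tested.

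IL-4 and IL-13, which drive M2 polarization, were compared with the control at an FDR of 0.01 and a change of 0.7 or more on the log2 scale. Both raised the inhibitory receptor and lowered the high-affinity activating receptor. After IL-4, 1 of the 5 genes was called higher (Fcgr2b; 2.22% of 9252 genes tested) and 1 lower (Fcgr1; 1.64%), and 3 of 5 passed the FDR (7.63% of all genes). After IL-13, again 1 was called higher (2.98%) and 1 lower (2.38%), with 3 of 5 passing the FDR (10.1%). The comparisons share their control samples.

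Fcgr2b stood at 154, 175 and 155 CPM after IL-4 and at 221, 184 and 204 CPM after IL-13, against 29.1, 29.9 and 46.6 CPM in control samples. All 6 treated samples were more than 3 times the highest control sample. The log2 fold change was 2.18 ± 0.13 with IL-4 (4.54-fold, adjusted p = 4.51e-19) and 2.504 ± 0.131 with IL-13 (5.67-fold, adjusted p = 3.40e-22). Summed B cell markers were 0 to 1.79 CPM after IL-4, 0 to 1.03 CPM after IL-13 and 0 to 1.63 CPM in control samples, and 4 of the 5 markers were at 0 in each of these groups.

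Fcgr1 was at 31.5, 29.5 and 25.1 CPM after IL-4 and at 26.5, 34.4 and 23.8 CPM after IL-13, below all control samples, of which the lowest held 52.7 CPM. It fell by 0.94 ± 0.16 on the log2 scale with IL-4 (adjusted p = 9.65e-06) and by 0.97 ± 0.16 with IL-13 (adjusted p = 2.91e-06), 1.92-fold and 1.96-fold. When the fold threshold was itself the null hypothesis, Fcgr1 was no longer called in either comparison (adjusted p = 0.951 and 0.423). Fcgr3 rose slightly, past the FDR and not the fold threshold. It held 722, 712 and 744 CPM after IL-4 and 858, 832 and 706 CPM after IL-13, all above the control samples, with log2 changes of 0.32 ± 0.08 (adjusted p = 4.10e-03) and 0.45 ± 0.08 (adjusted p = 2.46e-05). The change with IL-4 missed the FDR when any 1 of the 6 samples compared was left out (adjusted p from 0.0109 to 0.0348).

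Fcgr4 and Fcer1g did not pass the FDR with either cytokine. Fcgr4 held 56.2, 66.3 and 49.6 CPM after IL-4 and 50.8, 61.5 and 54.3 CPM after IL-13, and both groups overlapped the control. The 95% interval of its log2 change ran from -0.39 to 0.15 with IL-4 and from -0.44 to 0.10 with IL-13. Fcer1g held 500, 472 and 490 CPM after IL-4 and 502, 420 and 392 CPM after IL-13, also overlapping the control, with intervals of -0.08 to 0.27 and -0.24 to 0.11. These intervals leave out changes of the size seen with IFN-γ and LPS at 12 h in both genes.

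IL-13 was compared with IL-4 directly, at the same dose and time. With edgeR, none of the 5 genes was called, where 0.0649% of all genes were, and none passed the FDR, where 0.108% did. None of the 5 was called with DESeq2. Fcgr2b, the 1 gene with an unadjusted p under 0.05, was higher with IL-13 by 0.32 (95% interval 0.11 to 0.53, adjusted p = 0.381), and its ranges in the 2 groups did not overlap. The intervals for the others were -0.39 to 0.32 for Fcgr1, -0.03 to 0.29 for Fcgr3, -0.33 to 0.22 for Fcgr4 and -0.34 to 0.01 for Fcer1g.

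The M1 and M2 treatments were set against each other at 12 h in a fit of all 25 samples. Fcgr1, Fcgr4 and Fcer1g were higher after IFN-γ and LPS than after either cytokine, Fcgr3 was lower, and Fcgr2b differed least. Against IL-4, 3 of the 5 genes were called higher (8.58% of 10612 genes tested) and all 5 passed the FDR (41.0%). Against IL-13, 3 were called higher (8.59%) and 4 passed the FDR (41.0%). Fcgr1 was 28.4-fold higher than with IL-4 (log2 4.83 ± 0.19, adjusted p = 2.46e-18) and differed by 4.86 ± 0.19 from IL-13 (adjusted p = 1.87e-18), the largest differences of the 5 genes. Fcgr4 differed by 2.61 ± 0.23 and 2.66 ± 0.23, Fcer1g by 1.58 ± 0.09 and 1.73 ± 0.09, and Fcgr3 by -1.16 ± 0.11 and -1.30 ± 0.10 (adjusted p from 1.44e-27 to 1.08e-08). Without replicate 3 at 12 h, Fcgr1 differed by 4.51 from IL-4 and 4.54 from IL-13, and Fcgr4 by 2.21 and 2.26. The same 3 genes were still called higher. With library size alone, Fcer1g differed by 1.23 from IL-4 and 1.36 from IL-13 and was no longer called, and Fcgr3 was called lower, at -1.51 and -1.68. Fcer1g also lost its call with the fold threshold as the null hypothesis (adjusted p = 0.521 and 0.0147) and, against IL-4, with at least 10 counts in every sample (1.47).

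Fcgr2b differed by 0.39 ± 0.11 from IL-4 (adjusted p = 3.04e-03) and by 0.05 from IL-13 (95% interval -0.17 to 0.28, adjusted p = 0.715). Without replicate 3 at 12 h these values were 0.24 (adjusted p = 0.0870) and -0.09 (adjusted p = 0.524), and with library size alone they were 0.0342 (adjusted p = 0.806) and -0.32, the last past the FDR (adjusted p = 7.15e-03). The difference from IL-4 also missed the FDR with DESeq2 (0.0115), with at least 10 counts in every sample (0.0340) and without IL-4 replicate 1 (0.0201) or 3 (0.0169). Its 12 h samples with IFN-γ and LPS held 193, 183 and 255 CPM and overlapped the IL-13 samples at 184 to 221 CPM.

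In RAW264.7 cells, where LPS was given without IFN-γ, no receptor transcript rose past the FDR of 0.01. A call there needed a change of 2 or more on the log2 scale as well. None of the 5 genes was called with edgeR, where 3.22% of 9406 genes tested were, or with DESeq2. With edgeR, 3 of 5 passed the FDR and an unadjusted p of 0.05 (27.9% of all genes passed the FDR). Fcgr1 went from 160 and 160 CPM to 65.5 and 66.7 CPM, a fall by 2.36-fold (log2 -1.24 ± 0.11, adjusted p = 3.38e-28). Fcgr3 went from 49.1 and 54.1 CPM to 32.3 and 26.4 CPM (-0.78 ± 0.16, adjusted p = 6.73e-06), and missed the FDR with DESeq2 (adjusted p = 0.0129) and without LPS replicate 2 (0.0109). Fcer1g went up from 127 and 117 CPM to 178 and 156 CPM (0.49 ± 0.10, adjusted p = 3.24e-06). In all 3 genes the groups did not overlap. With 2 samples per group, the spread behind these SEs and p-values came almost wholly from the trend over all genes. The p-values therefore say little about the replicates of each gene.

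Fcgr2b, at 12.9 and 15.6 CPM in control and 17.6 and 12.2 CPM with LPS, and Fcgr4, at 4.5 and 4.0 CPM and 3.6 and 4.2 CPM, were low and overlapped between the groups. Their 95% intervals were wide, from -0.40 to 0.58 for Fcgr2b (0.09, turning to -0.09 with library size alone) and from -0.95 to 0.78 for Fcgr4. The treatment and the cells both differ from the BMDM time course, so the courses of the 2 cell types were not tested against each other.

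Untreated RAW264.7 cells differed from control BMDMs in all 5 genes. By the paper's account the cells also differed in mouse strain and medium (RPMI against DMEM), with M-CSF named for BMDMs alone. These factors cannot be told apart from cell type here. The log2 difference was -3.48 ± 0.14 for Fcgr3 (adjusted p = 2.67e-29) and -3.84 ± 0.45 for Fcgr4 (adjusted p = 3.66e-07), 2 of the 5 called lower with a threshold of 2, where 13.3% of all genes were. All 5 passed the FDR, against 65.6% of all genes. Fcer1g (-1.89 ± 0.11, adjusted p = 1.49e-24) and Fcgr2b (-1.30 ± 0.21, adjusted p = 1.05e-07) were also lower, and Fcgr1 was higher (1.55 ± 0.19, adjusted p = 5.16e-08). Fcgr1 was the leading receptor transcript in this line, at 63.5% of the 4 receptors per kb in control and 53.2% with LPS.

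The balance of activating to inhibitory receptor transcripts was taken within each sample, as the log2 ratio of the summed counts of Fcgr1, Fcgr3 and Fcgr4 to those of Fcgr2b, which does not depend on library scaling. In control BMDMs the ratio was 4.33 ± 0.37 (SD, n = 3), and activating counts were 15 to 24.3 times those of Fcgr2b. It was 4.90 ± 0.11 at 1 h of IFN-γ and LPS, or 27.4 to 31.3 times, above every control sample. It was lower at 4 h (3.15 ± 0.12), 12 h (2.79 ± 0.21) and 24 h (2.41 ± 0.04), when activating counts were 5.21 to 5.47 times those of Fcgr2b. After IL-4 it was 2.33 ± 0.11, a range that overlapped the 24 h samples, and after IL-13 it was 2.12 ± 0.20, below all 24 h samples. These counts were not corrected for length, and the order of these groups depended on it. Per kb of median coding transcript, Fcgr2b held 18.5% ± 0.535 of the 4 receptors at 24 h. Its share was 16.9% ± 1.92 after IL-13, overlapping the 24 h samples, and 14.9% ± 0.980 after IL-4. All treated BMDM groups were apart from the control. In RAW264.7 it was 3.91 ± 0.17 (n = 2) in control and 2.75 ± 0.33 (n = 2) with LPS.

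The ratio was also taken for each activating receptor. The log2 ratio of Fcgr4 to Fcgr2b went from 0.84 ± 0.34 in control to 3.37 ± 0.12 at 1 h and back to -0.06 ± 0.16 at 24 h. Fcgr3 to Fcgr2b went from 4.06 ± 0.38 to 0.26 ± 0.11 at 24 h, with all 24 h samples below all others of the BMDMs. Fcgr1 to Fcgr2b stayed above the control in all samples of the time course, at 1.98 ± 0.09 at 1 h and 1.66 ± 0.07 at 24 h against 0.67 ± 0.33, and was -2.48 ± 0.18 after IL-4 and -2.85 ± 0.38 after IL-13. Fcgr1 counts were 2.99 to 3.30 times those of Fcgr2b at 24 h and 0.118 to 0.205 times after the cytokines.

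**Figure D3:**
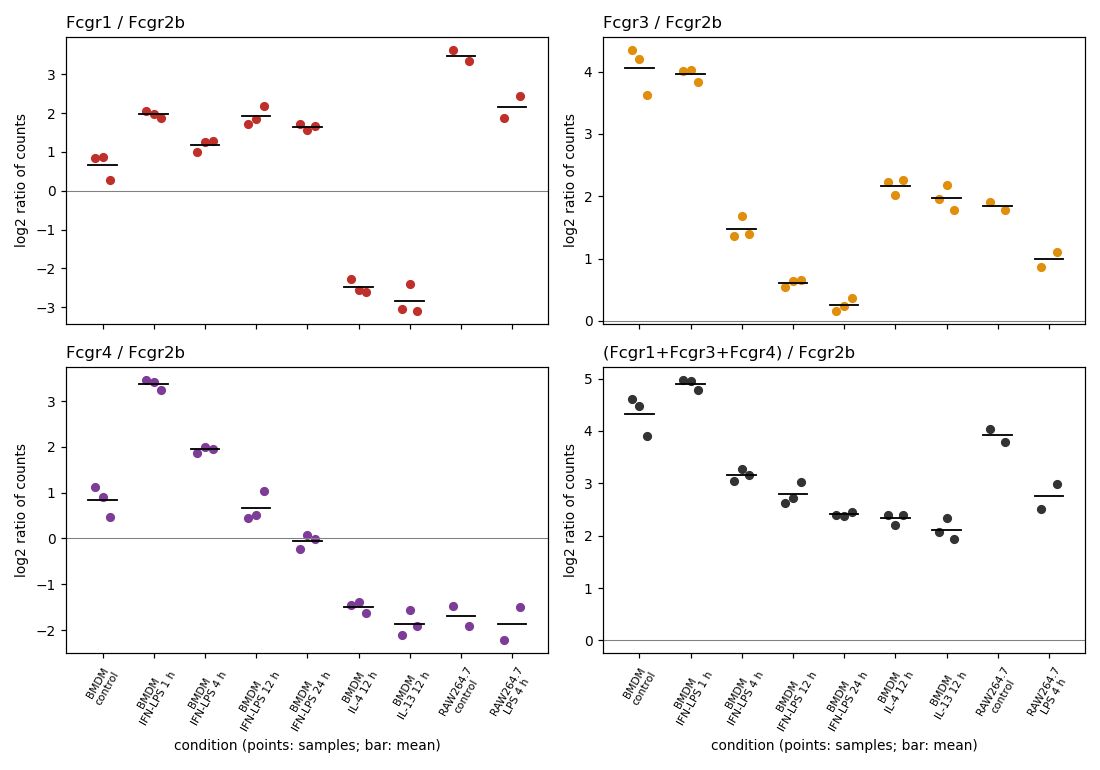
Log2 ratio of activating receptor counts to Fcgr2b counts within each sample (vertical axis), for each activating receptor and for their sum, in the 9 conditions (horizontal axis); points are samples and bars are means. In these counts, not corrected for length, the summed ratio is highest at 1 h of IFN-γ and LPS (4.90) and lowest after IL-13 (2.12). The Fcgr1 ratio is below 0 in all IL-4 and IL-13 samples and above 0 in all samples of the other conditions.

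Per kilobase of exon, the make-up of the receptor transcripts turned over during M1 activation. The share of Fcgr3 among the 4 receptors went from 81.3% ± 0.793 in control to 47.4% ± 0.460 at 1 h and 28.1% ± 1.81 at 4 h. It was 23.4% ± 2.57 in the 12 h samples and 24.2% ± 1.05 in the 24 h samples. Fcgr4 held 43.7% ± 0.369 at 1 h and 53.6% ± 1.37 at 4 h and was the largest share at 4 h. Fcgr1 became the largest at 12 h, with 38.6% ± 0.705, and at 24 h, with 42.8% ± 2.87. After IL-4 and IL-13, Fcgr3 stayed at 83.2% ± 1.83 and 83.5% ± 1.26, and the share of Fcgr2b was 5.54% ± 0.387 and 6.41% ± 0.817. With the median length of coding transcripts the leading receptor was the same in each of the 9 conditions. Fcgr2b then held 18.5% ± 0.535 at 24 h, 14.9% ± 0.980 after IL-4 and 16.9% ± 1.92 after IL-13.

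**Figure D4:**
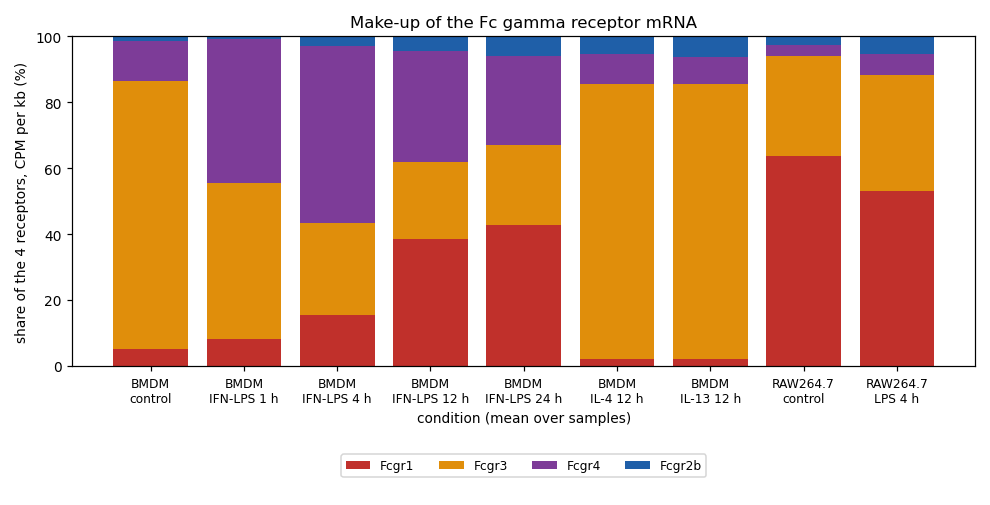
Mean share of each of the 4 receptors in their summed level (CPM per kb of annotated exon, in percent) in each condition; error bars are left out and the SDs are in the text. Fcgr3 leads in control (81.3%) and M2 cells, Fcgr4 at 4 h (53.6%) and Fcgr1 at 12 and 24 h of IFN-γ and LPS.

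The summed level of the 4 receptors was 409 ± 15 CPM per kb in control and 980 ± 98.5 at 1 h of IFN-γ and LPS. It was 616 ± 58.7 at 4 h, 819 ± 279 at 12 h (654 and 661 in replicates 1 and 2) and 463 ± 18.0 at 24 h, where the samples lay above all control samples. Fcer1g, whose product pairs with the activating receptors, stood at 1.28 ± 0.0758 times the summed activating receptors per kb in control and 0.802 ± 0.0624 at 1 h. It was 2.12 ± 0.321 at 4 h, 2.24 ± 0.481 at 12 h, and 4.54 ± 0.105 in the 24 h samples. After IL-4 and IL-13 it was 1.17 ± 0.0360 and 0.972 ± 0.0838. The median length of coding transcripts gave 1.32 ± 0.0763 for the control, 0.899 ± 0.0704 for 1 h and 5.41 ± 0.138 for 24 h.

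Across the 9 conditions, the mean level of Fcgr1 spanned 29.0-fold (IFN-γ and LPS at 12 h over IL-13), of Fcgr4 139-fold (1 h over RAW264.7 with LPS), of Fcgr3 27.5-fold (1 h over RAW264.7 with LPS), of Fcgr2b 14.8-fold (12 h over RAW264.7 control) and of Fcer1g 14.1-fold (24 h over RAW264.7 control). Without replicate 3 at 12 h, the 12 h mean of Fcgr2b was 188 CPM, below IL-13 at 203 CPM. That of Fcgr1 was 652 CPM and still the highest. In order of mean, neighbours with overlapping ranges were IL-4 and IL-13 for Fcgr1. For Fcgr2b they were 12 h and IL-13, 24 h and IL-4, and the 2 RAW264.7 groups. For Fcgr3 they were 1 h and IL-13, IL-13 and IL-4, and 12 h and 4 h. For Fcgr4 they were 4 h and 12 h, the control with IL-4, IL-4 with IL-13, and the 2 RAW264.7 groups, and for Fcer1g IL-4 with the control and the control with IL-13. All other neighbours in these orders were apart.

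The genes whose mean log2 level over the 9 conditions was most like each member were named by Pearson's r among 10612 genes. The conditions share libraries and scaling with the members, and r over 9 means is a description. For Fcgr1 they were Sema4a (0.958), Psmb2 (0.955) and H2-Q4 (0.952), and for Fcgr4 Hk3 (0.998), H2-DMb1 (0.996) and Eng (0.984). For Fcgr3 they were Tgfbr1 (0.992), Leprot (0.991) and Lyst (0.991), and for Fcgr2b Stxbp3 (0.980), Cyb561d2 (0.971) and Sdhaf2 (0.953). For Fcer1g they were Inhba (0.992), Agtrap (0.991) and Scarf1 (0.991). Among the members, r was lowest between Fcgr1 and Fcgr3 (-0.193) and highest between Fcgr4 and Fcer1g (0.893).

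Of 12 other Fc receptor genes, 4 had enough counts to be tested in BMDMs, and at 24 h 1 of these was called higher and 3 lower. At 1 h none was called by edgeR and 2 passed the FDR, at 4 h 1 was called higher and 1 lower, and at 12 h 1 and 2. Of all genes, 5.04%, 11.4%, 8.87% and 7.93% were called higher at 1, 4, 12 and 24 h. The shares called lower were 2.08%, 11.4%, 8.42% and 6.93%, and 26.0% passed the FDR at 1 h. Trim21, the cytosolic IgG receptor, rose from 12.2 CPM in control to 176 CPM at 4 h (log2 3.78 ± 0.18, adjusted p = 5.54e-24) and was still called at 24 h (2.58 ± 0.19, adjusted p = 1.31e-16). Fcrls and Fcrl1, Fc receptor-like genes, were both called lower at 12 and 24 h, and the change at 24 h was -4.09 ± 0.21 and -2.42 ± 0.33. Fcgrt, the neonatal Fc receptor, was the other gene lower at 24 h (-1.69 ± 0.19, adjusted p = 7.27e-11) and is named after its value was seen. The list's median log2 change was -2.20 at 12 h and -2.05 at 24 h, against -0.03 and 0.02 over all genes. With IL-4 and IL-13, Fcrl1 was called lower (-1.64 ± 0.30 and -1.54 ± 0.29) and no other gene of the list was called. Over all genes, 2.22% and 2.98% were called higher with these cytokines and 1.64% and 2.38% lower.

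Genes that carry the receptor signal were called in both directions. Of 25 tested kinases, adaptors and lipid enzymes that act next to the receptors, 1 was called higher and 0 lower at 1 h, where 5.04% and 2.08% of all genes were, and 3 and 3 at 4 h, close to the 11.4% and 11.4% of all genes. At 12 h the numbers were 6 and 1 (8.87% and 8.42% of all genes), and at 24 h they were 5 and 1 (7.93% and 6.93%). Their median log2 change was 0.10, -0.05, 0.52 and 0.48 at these times, against -0.03, -0.07, -0.03 and 0.02 over all genes. Src rose from 25.9 ± 2.37 CPM in control to 625 ± 43.8 CPM at 4 h (log2 4.53 ± 0.13), and Lcp2, which encodes the adaptor SLP-76, from 59.5 ± 4.99 to 1039 ± 40.5 CPM (4.07 ± 0.11). Vav3, an exchange factor for Rac, was lower at 12 h (-1.92 ± 0.20) and at 24 h (-2.75 ± 0.21), and Tec (-2.18 ± 0.17) and Vav2 (-2.10 ± 0.31) were lower at 4 h.

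Among 16 tested phosphatases and other ITIM receptors, Inpp5d, the lipid phosphatase that Fcgr2b recruits, fell from 401 ± 2.88 CPM in control to 52.5 ± 11.7 CPM at 4 h (log2 -2.99 ± 0.13, adjusted p = 1.47e-24). This fall was the deepest of its course: Inpp5d stood at 546 ± 9.06 CPM at 1 h (0.42 ± 0.10), rose again from 4 to 12 h (2.41 ± 0.14, adjusted p = 8.79e-20), and at 12 and 24 h was at 276 ± 54.4 and 279 ± 26.3 CPM (-0.58 ± 0.11 and -0.52 ± 0.10, past the FDR alone). Cd300a was lower at 4 h (-2.36 ± 0.11), 12 h (-2.97 ± 0.12) and 24 h (-3.25 ± 0.12). Ptpn6, which encodes the phosphatase SHP-1, was 1.51 ± 0.09 higher at 12 h and 1.89 ± 0.09 higher at 24 h. Siglece, an inhibitory lectin receptor, was called higher at 24 h, at 132 ± 11.0 CPM against 0.539 CPM in control, which is about 1 count per sample. In all, 1 gene was called higher and 0 lower at 1 h, 0 and 3 at 4 h, 2 and 2 at 12 h and 2 and 1 at 24 h, with a median of 0.00, -0.17, 0.51 and 0.45. Over all genes, 5.04%, 11.4%, 8.87% and 7.93% were called higher at these times and 2.08%, 11.4%, 8.42% and 6.93% lower.

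Of 22 genes of the phagocytic actin machinery, 3 were called higher and 1 lower at 4 h, 2 and 1 at 12 h and 2 and 0 at 24 h, with medians of 0.20, 0.38 and 0.39. Of all genes, 11.4%, 8.87% and 7.93% were called higher and 11.4%, 8.42% and 6.93% lower at these times. Rac2 went from 204 ± 16.4 CPM to 1148 ± 31.2 CPM at 24 h (log2 2.49 ± 0.10), and Vasp was 2.65 ± 0.18 higher. At 1 h none of these genes was called by edgeR, where 5.04% of all genes were called higher and 2.08% lower. At that time 8 passed the FDR at any size (26.0% of all genes), with a median of 0.11. Tyrobp and Hcst, which encode other adaptor chains and were the 2 tested of 4 on their list, were not called at any time point, with a median of 0.06, 0.14, -0.25 and -0.04 over the 4 times.

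Of 8 IFN-γ pathway genes, 3, 5, 4 and 4 were called higher at 1, 4, 12 and 24 h and 0 lower, with medians of 0.54, 3.37, 2.37 and 1.88. Over all genes, 5.04%, 11.4%, 8.87% and 7.93% were called higher at these times and 2.08%, 11.4%, 8.42% and 6.93% lower. With IL-4 and IL-13, 3 of the 8 were called higher in each case (2.22% and 2.98% of all genes), among them Jak2 (1.19 ± 0.11 and 1.68 ± 0.11) and Socs1, a feedback inhibitor of cytokine signalling (2.98 ± 0.46 and 3.68 ± 0.41). Irf1 went from 44.2 ± 5.24 CPM to 1581 ± 87.4 CPM at 1 h (log2 5.13 ± 0.11). With IL-4 and IL-13, 4 and 5 of 9 tested IL-4 and IL-13 pathway genes were called higher and 0 lower, where 1.64% and 2.38% of all genes were called lower. Of 7 tested in the time course, 2, 3, 1 and 1 were called higher at 1, 4, 12 and 24 h and 0, 1, 1 and 1 lower. Chil3 went from 5.03 CPM to 717 ± 43.5 CPM with IL-4 and 1387 ± 14.2 CPM with IL-13. Of 25 tested receptor-proximal genes, 3 were called higher and 0 lower with each cytokine, among them Lat (1.73 ± 0.42 with IL-4, 1.77 ± 0.41 with IL-13). Lat was low throughout, at 2.52 CPM in control, 8.63 CPM with IL-4 and 8.86 CPM with IL-13. Clec12a, an inhibitory lectin receptor, was called lower with both (-0.92 ± 0.10 and -1.21 ± 0.10). In RAW264.7 with LPS, 4 of 24 receptor-proximal genes were called higher and 0 lower (2.39% and 0.829% of all genes), with Src (4.08 ± 0.32) and Fgr (3.85 ± 0.18) leading.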

How the data were processed

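RNA-seq libraries of 25 samples were analysed. The authors depleted ribosomal RNA, made stranded libraries, demultiplexed with CASAVA 1.8.2, trimmed reads with Trimmomatic 0.33, aligned them to mm10 with STAR 2.5.1 and deposited whole-number counts per gene and sample, with no normalization (versions from the submitters' processing notes). The annotation release is not given in the sources used here, and the labels name polyA RNA where the protocol names ribosomal depletion. The tables set multimapping reads apart, so genes that share sequence lose counts. Counts on the gene's own strand entered the fits, and Rn45s was left out. Reads with no gene or an ambiguous one, 63.0% to 69.3% of those placed by strand, were left out of library sizes and tests.

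Counts were fitted in R 4.3.3 with edgeR 4.0.16 (filterByExpr, TMM, robust quasi-likelihood fit and test, group means only) in 4 fits: the time course of 15 samples, IL-4, IL-13 and control, RAW264.7, and all 25 samples. p-values were adjusted by Benjamini-Hochberg over all genes tested in a comparison, SEs are the change divided by the root of the F statistic, and intervals are 95%. CPM are TMM-scaled over all samples. A gene's length per kb is its annotated exon bases in GENCODE M21; the median coding transcript length was added after seeing the data. Ratios add 0.5 to counts, and likeness uses a prior count of 2. Scripts were tested on simulated data. Figures were drawn with Python 3.11.15 and matplotlib 3.10.9.

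Alternatives were DESeq2 1.42.0, RLE and library-size scaling, other count filters, unstranded counts, keeping Rn45s, fits of the compared groups alone, the fold threshold as the null hypothesis, a replicate block, and leaving out each sample. Replicate numbers did not pair the samples: deviations of same-numbered samples correlated by 0.0209 on average in the time course, 0.00798 with the cytokines and -0.00247 in RAW264.7. Replicates differed by more than counting noise (chi-square per degree of freedom 1.30 to 4.53 over 23 pairs). The members, gene lists and tests were chosen with earlier results of these data known. From each list, up to 2 called genes with the largest rise and 2 with the largest fall, with at least 5 CPM in the higher group, could be named, and for each member the 3 genes most like it. Protein sequences were not used here.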

Additional observations from a re-analysis of the deposited data

Results flagged for a closer look

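The 5 genes differed between time points of IFN-γ and LPS in 9 direct tests at an FDR of at most 0.01 in edgeR. From 1 to 4 h the log2 difference was 1.03 for Fcgr2b, -1.44 for Fcgr3 and 0.68 for Fcer1g. From 4 to 12 h it was 1.76 for Fcgr1, 0.98 for Fcgr2b and 0.41 for Fcer1g. From 12 to 24 h it was -0.64 for Fcgr1, -0.69 for Fcgr3 and -1.12 for Fcgr4. Only the change of Fcgr1 from 4 to 12 h passed the fold threshold as well, and it did so with replicate 3 at 12 h included (1.45 without it).

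Counts on the strand opposite to the gene, which no comparison used, lay above every control sample of the same cells in 7 of 35 comparisons of a gene and a treated group. In BMDMs with IFN-γ and LPS these were Fcgr1 at 12 h (mean 9.67 counts per sample), Fcgr3 at 1 h (mean 5.67), Fcgr4 at 1 h (mean 4.00) and 4 h (mean 1.67) and Fcer1g at 12 h (mean 3.67). In RAW264.7 with LPS they were Fcgr1 (2 counts in each sample) and Fcer1g (1 count in each). The control samples held at most 3 antisense counts for any of these genes. Sense counts of Fcgr1 were lower with LPS than in control in RAW264.7. The part of strand carry-over was not tested.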

How the results depend on the processing

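No call of the 5 genes against control, which needs the FDR and the fold threshold together, changed under DESeq2, RLE scaling, no filter on low counts, unstranded counts, Rn45s kept and fits of the compared groups alone. The FDR alone was crossed in 47 cases over all comparisons, alternatives and samples left out. Among these, Fcgr2b at 1 h passed with no filter (0.55) and with the compared groups alone (0.53), and Fcgr3 in RAW264.7 missed with DESeq2 (-0.77). Several calls were lost with the fold threshold as the null hypothesis. In the time course these included Fcgr2b at 4 h (adjusted p = 0.763), Fcer1g at 12 h (0.164) and Fcgr3 at 24 h (0.778). Fcer1g at 12 h of IFN-γ and LPS also lost its calls against IL-4 and IL-13 (0.521 and 0.0147). The number of the 5 genes called under this setting fell to 1 at 1 h of IFN-γ and LPS (Fcgr1 lost, adjusted p = 0.244), 1 with IL-4, 1 with IL-13 and 0 from 4 to 12 h. With library size alone it was 1 from 1 to 4 h (Fcgr3), and the log2 difference turned to -0.11 for Fcgr1 from 1 to 4 h, 0.000766 for Fcgr1 between IL-13 and IL-4, -0.0918 for Fcgr2b in RAW264.7 with LPS and -0.32 for Fcgr2b between 12 h of IFN-γ and LPS and IL-13. With at least 10 counts in every sample it was 1 from 1 to 4 h, 1 between IFN-γ and LPS and IL-4, and 1 between RAW264.7 and BMDM control, since Fcgr4 was not tested there, and Fcgr2b differed by -0.0516 between IFN-γ and LPS and IL-13. The cause of the other shifts was not tested.

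Leaving out each sample in turn gave 0 to 1 genes called from 1 to 4 h (1 without replicate 3 at 1 h or replicate 2 at 4 h, for Fcgr3) and 0 to 1 from 4 to 12 h (0 without replicate 3 at 12 h). Signs turned only for differences that did not pass the FDR: the range was -0.0616 to 0.23 for Fcgr3 from 4 to 12 h, -0.17 to 0.0090 for Fcer1g with IL-13, -0.21 to 0.0811 for Fcgr1 and -0.14 to 0.0701 for Fcgr4 between IL-13 and IL-4, -0.18 to 0.35 for Fcgr2b and -0.20 to 0.0145 for Fcgr4 in RAW264.7 with LPS, and -0.0946 to 0.17 for Fcgr2b between IFN-γ and LPS at 12 h and IL-13. With 1 sample left in a RAW264.7 group, that sample is assumed to vary like the other group.

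Replicate numbers are shared across groups without pairing the samples (3 of 30 same-numbered pairs in the time course correlated above 0.1). With the replicate block, 2, 3, 4 and 4 genes were called at 1, 4, 12 and 24 h and 2 with each cytokine, and no count of the 5 genes changed in any comparison. The ratio of activating to inhibitory counts, taken without correction for length, kept its direction and moved by less than 1 SD in all 61 alternatives. The length used per kilobase moved the share of Fcgr2b. From annotated exons to the median coding transcript it went from 1.48% to 4.36% in control and from 6.06% to 18.5% at 24 h. Low counts limit Fcgr4 and Fcgr2b in RAW264.7 most, at 9 to 13 and 35 to 44 counts per sample.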
